A study of Mus musculus with 8 samples.

Results

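A set of 10 genes of the response to low oxygen was followed in C2C12 myoblasts, a mouse muscle precursor line, after silencing of the long non-coding RNA Pvt1. They are Hif1a, Epas1, Vhl, Egln1, Egln3, Vegfa, Adm, Ankrd37, Ndrg1 and P4ha1, and they were chosen by name, taking every spot that was not a control spot and carried 1 of these gene names. All 10 were on the array, out of 37074 gene names, through 16 of 56605 probes. Of these 16 probes, 15 had enough values to be tested, and each of the 10 genes had at least 1 tested probe.

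The samples were 8 cultures of proliferating C2C12 cells at passage 10, 4 in which Pvt1 was silenced and 4 negative controls, labelled as biological replicates 1 to 4 of each group. The silenced cultures had been transfected by lipofection with antisense LNA GapmeRs, oligonucleotides that lead to cleavage of the RNA they pair with. Control cultures were lipofected with GapmeRs designed as negative controls, so all 8 had been transfected, and the labels describe no culture as kept in low oxygen. The labels name 2 GapmeRs against Pvt1 and do not say which culture received which. Their sequences, written 5′ to 3′, are shown because they define the treatment.
Pvt1_1: accgtagtagagttaa
Pvt1_3: agtcaacgcttcacat

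Cells read oxygen through the hypoxia-inducible factors (HIF). The alpha subunits, HIF-1α (Hif1a) and HIF-2α (Epas1), are made all the time, and in the presence of oxygen prolyl hydroxylases mark them so that the von Hippel-Lindau protein (Vhl) sends them for degradation. When oxygen is short the alpha subunits persist, pair with ARNT and switch on genes for glycolysis, vessel growth and collagen processing. Because this control acts on the protein, the mRNA level of Hif1a or Epas1 does not report how active the factor is. In skeletal muscle the pathway is known for tuning glucose use and, through VEGF-A, the supply of capillaries.

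RNA was labelled with Cy3 and hybridised to 1-colour Agilent arrays, 1 per culture, all on 1 slide and read in 1 scan. Values are log2 of the processed spot intensity after quantile normalization, here called log2 signal, and a change is the silenced mean minus the control mean. A change was called when its limma p-value, adjusted over all 28649 probes tested by the Benjamini-Hochberg method, was under 0.05. Between 58.8% and 62.5% of spots were positive and significant on 7 arrays, and 51.6% on silenced replicate 4, the dimmest array. All values are limited in precision by the number of arrays. The target was checked with its brightest probe. Pvt1 was at 9.86 ± 0.30 in the controls and at 7.0 ± 0.63 in the silenced cultures (log2 signal, mean ± SD, n = 4 each), and the change of -2.86 (SE 0.32, limma adjusted p 0.000682) corresponded to 13.8% of the control level. Over all probes the median change was -0.19 with quantile normalization and 0.02 with cyclic loess, and it was -0.033 without silenced replicate 4, whose probes had a median deviation of -0.65 from their means over the arrays. Among the myoblast markers, 11 of 12 were well above background on some arrays and Myf5 on none, and their summed linear signal, without masking of dim spots, ran from 111540 to 120380 in controls and from 74266 to 96833 in silenced cultures, with Myod1, Des and Cdh15 called lower.

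The responses of the 10 genes went in both directions. Vegfa, the main growth factor for blood vessels, was lower in silenced cells by 3 of its 4 probes, and Egln3, a prolyl hydroxylase that is itself a HIF target, was higher. In such bulk samples fewer cells of a type and less RNA per cell cannot be told apart. Of the 15 tested probes, 4 were called, or 1 higher and 3 lower. Across all probes tested, 23.2% were called in either direction, 4.79% higher and 18.4% lower. Therefore the share of called members, 4 of 15, was near that of the array as a whole. The groups did not overlap for 4 of the 15 probes, against 28.2% of all probes, over the values measured. Other scalings changed the split between directions. With cyclic loess 6 of the 15 were called, 3 higher and 3 lower, and the additional probes were those of Ndrg1 and Egln1. Over all probes cyclic loess called 37.3%, 18.9% higher and 18.4% lower, so the share of members was again near that of the array. Silenced replicate 4 also weighed on the split, since without it 3572 of 29663 probes were called higher and 5287 lower, and of the 15 member probes 2 were called higher and 3 lower.

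**Figure D1:**
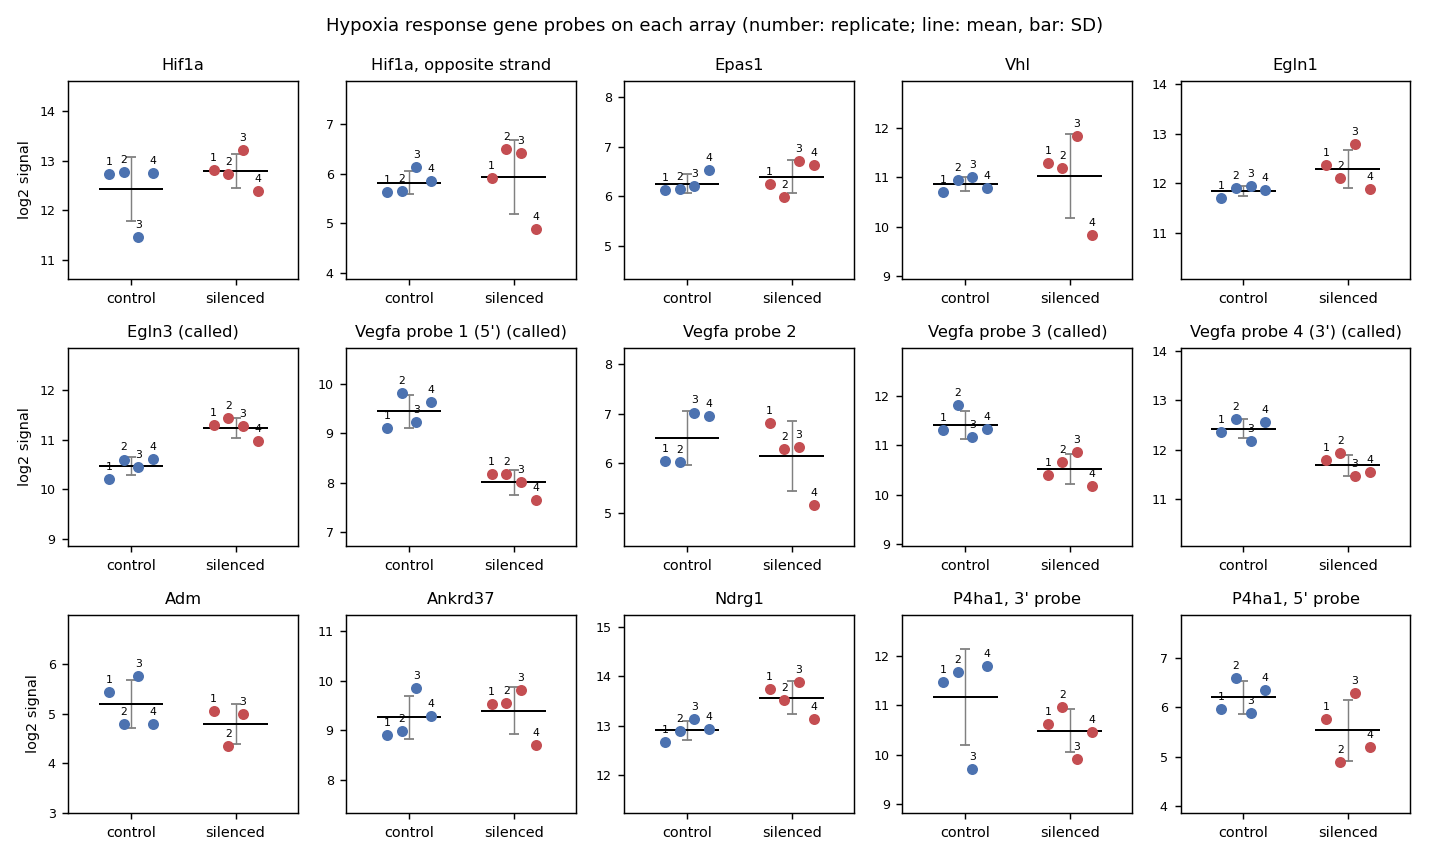
Log2 signal of the 15 tested probes on each of the 8 arrays, with control cultures in blue and silenced cultures in red; numbers give the replicate, the black line the group mean and the grey bar the SD, and every panel spans 4 log2 units. The groups stand apart for Egln3 and for Vegfa probes 1, 3 and 4, control replicate 3 lies low for Hif1a and for the 3′ probe of P4ha1, and silenced replicate 4 has no value for Adm.

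Vegfa encodes VEGF-A, the secreted ligand that drives capillary growth and that muscle fibres release toward nearby vessels. Its 4 probes are numbered here along the gene, on the minus strand of chromosome 17 in build mm9, from 5′ to 3′. Probe 1 is the 5′-most, and probe 2 lies at chr17:46159226-46159282, probe 3 at chr17:46155512-46155571 and probe 4 at chr17:46154387-46154446. Exons and untranslated regions were not read from an annotation here. Probe 2 is shown, 5′ to 3′ on the minus strand and in lower case throughout, because an open frame of it is rich in basic residues. Which isoforms carry it was not determined here.
Vegfa probe 2: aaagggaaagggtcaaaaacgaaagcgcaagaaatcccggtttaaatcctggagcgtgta
Translated in an open frame, probe 2 gave 19 residues of which 10 were lysine or arginine. Isoforms of VEGF-A differ through splicing in which basic, heparin-binding stretches they carry. Its 60 letters are placed by the files on 57 bases of genome.

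Probe 1 of Vegfa fell the most of all member probes. In the controls its log2 signal was 9.11, 9.82, 9.22 and 9.63 in replicates 1 to 4, and in the silenced cultures 8.18, 8.19, 8.01 and 7.66. Every silenced array lay below every control array, with almost 1 log2 unit between the groups. The change was -1.44 (SE 0.23, limma adjusted p 0.00295), which left 37.0% of the control signal. Within the upper row of the slide, which held control replicates 1 to 3 and silenced replicate 1, the change was -1.20, and within the lower row, with control replicate 4 and silenced replicates 2 to 4, it was -1.67. Blocking by slide row gave -1.44 (limma adjusted p 0.0204), and this probe alone among the members was called under every one of 19 alternatives.

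Probes 3 and 4, toward the 3′ end, fell as well. Probe 3 had a log2 signal of 11.31, 11.82, 11.16 and 11.33 in control replicates 1 to 4 and of 10.39, 10.66, 10.87 and 10.18 in silenced replicates 1 to 4. Its change was -0.88 (SE 0.23, limma adjusted p 0.0233), or 54.3% of the control signal. In the same order, probe 4 had 12.35, 12.61, 12.18 and 12.56 in controls and 11.79, 11.93, 11.47 and 11.55 in silenced cultures. The change of probe 4 was -0.74 (SE 0.20, limma adjusted p 0.0263), leaving 59.9%. For both probes no silenced value reached the lowest control value. Within the upper and the lower row of the slide probe 3 changed by -1.04 and -0.76, and probe 4 by -0.59 and -0.91. Taking the slide row as a block kept the sizes, -0.90 for probe 3 and -0.75 for probe 4, but ended both calls (limma adjusted p 0.0881 and 0.106). Leaving out control replicate 2 or 4 or silenced replicate 1 also ended both calls, and for probe 4 so did leaving out control replicate 1 or silenced replicate 3. The changes were then -0.91 to -0.75 for probe 3 (limma adjusted p 0.0635 to 0.0831) and -0.77 to -0.66 for probe 4 (limma adjusted p 0.0543 to 0.0947).

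Probe 2, on the basic stretch, was dim and was not called. It was well above background on 2 control and 3 silenced arrays, with a log2 signal of 6.05, 6.03, 7.03 and 6.95 in control replicates 1 to 4 and of 6.82, 6.29, 6.33 and 5.15 in silenced replicates 1 to 4. The groups overlapped, and the change was -0.37 (SE 0.39, limma adjusted p 0.542). Its size depended on the processing, at -0.07 with cyclic loess, -0.12 with normexp background correction, -0.014 in the authors' table and between -0.59 and -0.036 without single arrays. Within the rows of the slide it had opposite signs, 0.45 in the upper and -1.02 in the lower. Averaged over its 4 probes, Vegfa changed by -0.86 (limma adjusted p 0.0244).

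**Figure D2:**
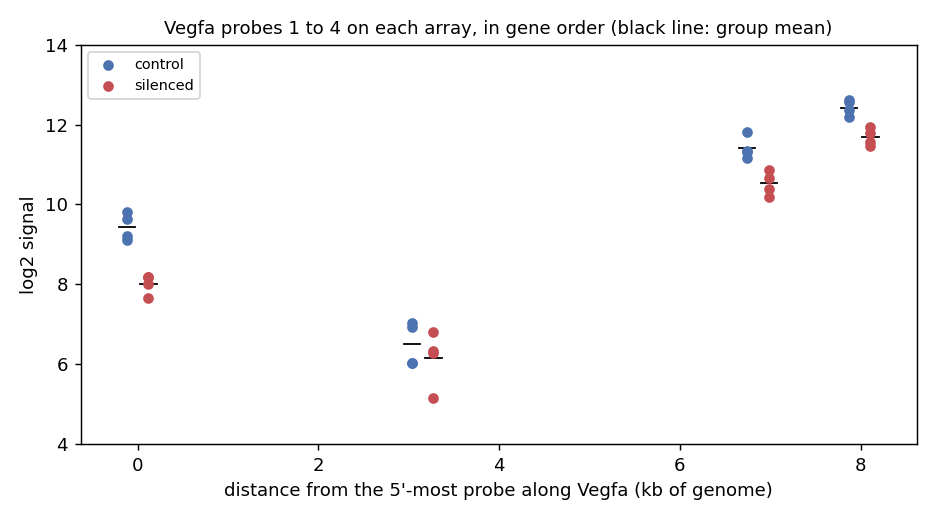
Log2 signal of the 4 Vegfa probes on each array against their genomic distance in kb from the 5′-most probe, with controls in blue, silenced cultures in red and a short black line at each group mean. The silenced points lie below the control points at probes 1, 3 and 4, which changed by -1.44, -0.88 and -0.74, and overlap with them at probe 2.

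Probes of one gene were compared within each array. Probe 1 minus probe 4 of Vegfa was -3.24, -2.79, -2.96 and -2.93 in control replicates 1 to 4 and -3.61, -3.74, -3.46 and -3.90 in silenced replicates 1 to 4. The mean of this difference changed by -0.70, and the groups did not overlap. An exact permutation test (two-sided) gave p 0.0286, the lowest value that 4 against 4 arrays can reach, and 0.1 after adjustment over the 7 probe pairs compared in Vegfa and P4ha1. Probe 1 minus probe 3 changed by -0.56, with the same p-values, and probe 1 minus probe 2 by -1.07 (exact permutation p 0.0571, adjusted 0.133). The other Vegfa pairs changed less or in the opposite direction, by 0.37 for probe 2 minus probe 4, 0.52 for probe 2 minus probe 3 and -0.14 for probe 3 minus probe 4 (exact permutation p 0.343 to 0.543). For P4ha1 no difference is given, because its 5′ probe was well above background on no silenced array. The adjusted p-values could not settle the comparison, since with only the 3 pairs of probe 1 at the lowest exact p they could reach no less than 0.0667. Over 2542 genes with probes between 1000 and 10000 bases apart, the median of the 5′ minus the 3′ probe ran from -2.12 to -1.76 on control arrays and from -2.56 to -2.25 on silenced arrays, and the 5′ probe fell more in 70.4% of the genes. The part of this shift in the Vegfa values was not tested.

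The oxygen sensors came next. EGLN1 and EGLN3 are prolyl hydroxylases that use oxygen to mark the HIF alpha subunits, and Egln3 is among the genes most readily induced by HIF. Egln3 (chr12:55280953-55281012, minus strand) had a log2 signal of 10.21, 10.61, 10.46 and 10.61 in control replicates 1 to 4 and of 11.29, 11.44, 11.28 and 10.97 in silenced replicates 1 to 4. Each silenced array was above each control array. The change was 0.78 (SE 0.20, limma adjusted p 0.0205), a 1.71-fold higher signal, and 0.97 above the median of all probes. It was 0.87 within the upper and 0.62 within the lower row of the slide. Blocked by row it was 0.75 and no longer called (limma adjusted p 0.102), and the call was also lost without control replicate 1, 2 or 4 or silenced replicate 1 or 2, when changes ran from 0.70 to 0.83 (limma adjusted p 0.0535 to 0.0630).

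Egln1, the hydroxylase that sets HIF levels in most tissues, was not called. Its probe (chr8:127432510-127432569, minus strand) had a log2 signal of 11.69, 11.89, 11.93 and 11.85 in control replicates 1 to 4 and of 12.36, 12.09, 12.79 and 11.89 in silenced replicates 1 to 4. Silenced replicates 1 to 3 lay above all controls, and replicate 4 lay among them. The change was 0.44 (SE 0.23, limma adjusted p 0.198), and between 0.27 and 0.61 over 19 alternatives. It was called under 3 of them, cyclic loess, the authors' own normalized table and no masking of dim spots.

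Vhl encodes the protein that recognises the hydroxylated alpha subunits. At chr6:113581566-113581625 on the plus strand, its log2 signal was 10.697, 10.94, 10.99 and 10.78 in control replicates 1 to 4 and 11.28, 11.18, 11.82 and 9.83 in silenced replicates 1 to 4. The silenced arrays spread on both sides of the controls, replicate 4 below and the other 3 above. Accordingly the change of 0.17 had an SE of 0.38 (limma adjusted p 0.784), and it turned to -0.090 without silenced replicate 3.

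The factors themselves did not pass the test. Hif1a, probed at chr12:75047819-75047878 on the plus strand, had a log2 signal of 12.73, 12.78, 11.46 and 12.76 in control replicates 1 to 4 and of 12.82, 12.73, 13.22 and 12.39 in silenced replicates 1 to 4. Control replicate 3 stood below all other arrays, and the groups overlapped. The change was 0.36 (SE 0.33, limma adjusted p 0.482), and between 0.03 and 0.54 over 19 alternatives. Another Hif1a probe, on the opposite strand (chr12:75027538-75027597), exceeded background clearly on none of the control arrays and on 2 silenced arrays and changed by 0.11 (limma adjusted p 0.860). The last one (chr12:75033965-75034024) was positive on 1 control array only and was not tested. Epas1, which encodes the HIF-2α typical of endothelial cells, had a dim probe (chr17:87232615-87232674, plus strand) that was well above background on 2 arrays of each group, with a change of 0.14 (SE 0.23, limma adjusted p 0.697).

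Other HIF targets completed the list. NDRG1 is a cytoplasmic protein of stress responses and differentiation, and its mRNA is induced by low oxygen in many cells. The Ndrg1 probe (chr15:66760903-66760962, minus strand) had a log2 signal of 12.66, 12.90, 13.14 and 12.93 in control replicates 1 to 4 and of 13.74, 13.51, 13.88 and 13.14 in silenced replicates 1 to 4. Only silenced replicate 4 and control replicate 3 overlapped, and they differed by less than 0.01. The change of 0.66 (SE 0.22) did not pass the test (limma adjusted p 0.0594), although it did under 9 of 19 alternatives, among them leaving out either of those arrays. Its range was 0.55 to 0.85 over the 19, and it was 0.84 within the upper and 0.58 within the lower row of the slide.

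P4ha1 encodes the catalytic subunit of collagen prolyl 4-hydroxylase, which needs oxygen to stabilise collagen. Its 3′ probe (chr10:58834272-58834331, plus strand) had a log2 signal of 11.48, 11.68, 9.72 and 11.80 in control replicates 1 to 4 and of 10.62, 10.96, 9.93 and 10.46 in silenced replicates 1 to 4. Control replicate 3 was the lowest of the 8 arrays, whereas the other 3 controls lay above every silenced array. The change was -0.68 (SE 0.45, limma adjusted p 0.313) with all arrays, and -1.15 (limma adjusted p 0.0143) without control replicate 3. It was -0.33 within the upper row of the slide, which holds that array, and -1.35 within the lower row. The 5′ probe, whose coordinates (chr10:58802114-58805464) span far more than its own length, was well above background on 2 control arrays and on no silenced array, and changed by -0.67 (SE 0.32, limma adjusted p 0.166). Its silenced level, bounded by the lowest signal well above background or a higher measured value, was at most 6.19. The control mean of this probe was 6.20, so the bound shows no difference.

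Ankrd37 and Adm gave no called change. Ankrd37, an ankyrin repeat protein whose gene is a direct HIF target, had a probe at chr8:47082404-47082463 (minus strand) with values from 8.91 to 9.86 in controls and from 8.70 to 9.81 in silenced cultures, and a change of 0.14 (SE 0.30, limma adjusted p 0.790). Adm, which encodes the vasodilating peptide adrenomedullin, was well above background on none of the 8 arrays (chr7:117773088-117773147, plus strand). The Adm values ran from 4.79 to 5.76 in controls and from 4.34 to 5.06 in the 3 silenced arrays with a value, and the change of -0.40 (limma adjusted p 0.408) was fitted without silenced replicate 4.

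**Figure D3:**
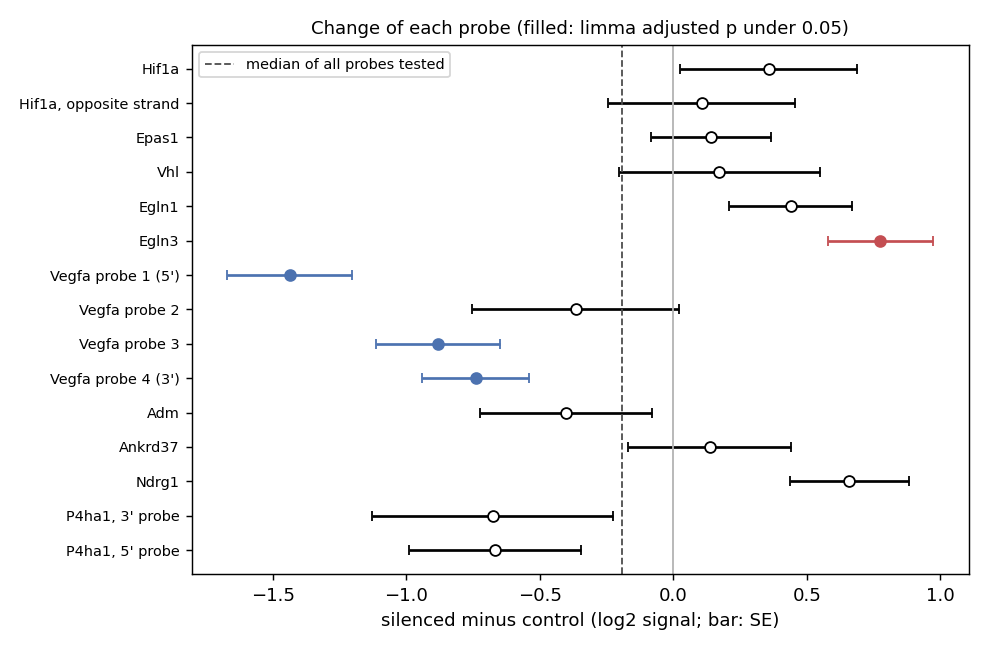
Change of each of the 15 tested probes, silenced minus control on the log2 scale, with bars for the SE; filled points had a limma adjusted p under 0.05 and the dashed line is the median of all probes tested (-0.19). Egln3 lies at 0.78 on the right, and Vegfa probes 1, 3 and 4 lie between -1.44 and -0.74 on the left.

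**Figure D4:**
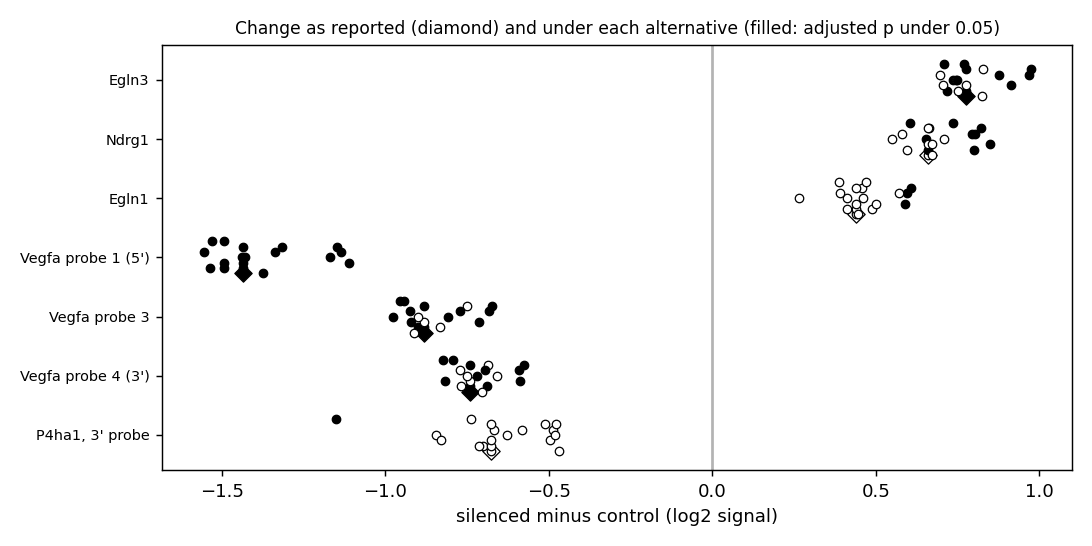
Change on the log2 scale of 7 member probes as reported (diamonds) and under each alternative way of processing or leaving out an array (circles), filled where the adjusted p was under 0.05. Vegfa probe 1 is filled throughout, Egln3 and Vegfa probes 3 and 4 are filled in part, and no point crosses 0.

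The promoters of the members were searched for the core of the HIF binding motif, spelled ACGTG or GCGTG on either strand. RefSeq start sites on GRCm38.p6, with 250 bases before and 50 after the start, gave 9 promoters for 8 of the 10 genes, Vegfa having 2 start sites. A core was present in 7 of 9 (77.8%), against 43.8% of 32851 promoters, and ACGTG in 6 of 9 (66.7%), against 19.6%. Member promoters were also richer in G and C, with a median of 62.7% against 52.7%. The promoters of 3 genes are shown for the part before the start site, since they belong to the member called higher, the member called lower and the member with the most cores. Each runs 5′ to 3′ on the minus strand, and capitals mark the cores, CACGC and CACGT being GCGTG and ACGTG read on the other strand. Egln3 is chr12:54203875-54204124, Vegfa is chr17:46032378-46032627 and Ankrd37 is chr8:45999851-46000100.
Egln3: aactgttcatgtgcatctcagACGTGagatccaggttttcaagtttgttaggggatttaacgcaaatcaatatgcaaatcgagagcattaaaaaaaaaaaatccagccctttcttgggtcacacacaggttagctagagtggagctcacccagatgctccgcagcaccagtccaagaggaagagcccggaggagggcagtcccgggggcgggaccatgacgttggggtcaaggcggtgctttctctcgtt
Vegfa: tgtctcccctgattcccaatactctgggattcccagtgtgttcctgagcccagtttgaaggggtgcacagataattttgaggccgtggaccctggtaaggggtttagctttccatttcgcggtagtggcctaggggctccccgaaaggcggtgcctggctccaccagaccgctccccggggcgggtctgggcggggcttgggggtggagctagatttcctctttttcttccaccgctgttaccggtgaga
Ankrd37: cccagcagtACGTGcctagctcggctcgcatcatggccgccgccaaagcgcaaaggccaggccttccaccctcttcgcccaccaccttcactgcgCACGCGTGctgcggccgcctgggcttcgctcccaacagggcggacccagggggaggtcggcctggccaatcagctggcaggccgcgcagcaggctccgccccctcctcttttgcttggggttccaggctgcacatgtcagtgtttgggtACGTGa
Egln3 held 1 core, at position -229 from the start site. The Vegfa promoter shown, the upstream one of its 2 start sites, held none. The window at the other start site (chr17:46025114-46025413) held 2, GCGTG at -218 and ACGTG on the opposite strand at -211. That window lies downstream of the first start site, within the gene, so it may hold transcribed or coding sequence. Exons were not read here, and the shares of 7 of 9 and 6 of 9 count this window. Ankrd37 held 4, of which the middle 2 overlap on opposite strands, yet its signal did not pass the test. A match of these letters is a description of the sequence only.

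The wider pathway was described through 7 lists of genes that hold no member, with each gene read by its brightest probe. Of 134 listed genes 125 were tested, and 11 were called higher and 21 lower, while 5.99% of all genes were called higher and 14% lower. Over the 125 genes the median change was near 0 (-0.003), and over all genes it was -0.09. This split depended on the scaling. With cyclic loess 35 were called higher and 24 lower, when 22.1% of all genes were called higher and 14.3% lower. The authors' normalized values gave 34 higher and 20 lower, against 21.2% and 12.2% of all genes in that table. Blocking by slide row left 4 higher and 10 lower, against 2.41% and 5.97% of all genes.

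Among HIF partners and regulators, 4 of 22 tested genes fell and none rose, with a median change of -0.11. Hif1an, which encodes the asparaginyl hydroxylase FIH that blocks the activation domain of the alpha subunits, had a log2 signal from 8.65 to 9.23 in the 4 controls and from 7.0 to 7.91 in the 3 silenced arrays with a value. Its change was -1.50 (SE 0.28, limma adjusted p 0.00692), and silenced replicate 2 was left out because its spot carried an outlier flag. In the authors' table that spot had a log2 value of 13.7, and the change there was 0.38 (limma adjusted p 0.908). By the methods' t-test with the same adjustment Hif1an was not called (adjusted p 0.0741). Crebbp, a histone acetyltransferase that HIF recruits, fell by 1.31 (limma adjusted p 0.00324), and of its other 2 probes, both called lower, 1 changed by -2.13 and 1 was well above background on 3 control arrays and on no silenced array. Hsp90aa1, the chaperone HSP90α, changed by -0.96 (limma adjusted p 0.0118), while its other probe, well above background on all 8 arrays, changed by -0.46 and was not called (limma adjusted p 0.176). Arntl, the clock partner BMAL1, changed by -0.87 (limma adjusted p 0.0230). On blocking by slide row Hsp90aa1 (-0.94) and Arntl (-0.85) were not called (limma adjusted p 0.0638 and 0.0975), and Arntl was not called without control replicate 2 or 4 or silenced replicate 1 or 3 (-0.89 to -0.79). Arnt, the partner of the alpha subunits, changed by 0.17 (limma adjusted p 0.572) and was not called.

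Targets of glucose use and pH had a median change of 0.30, and 3 of 27 rose while 4 fell. Those that rose were Aldoc, an aldolase, by 1.36 (limma adjusted p 0.0284), Pfkfb4, which makes the activator of phosphofructokinase, by 1.04 (limma adjusted p 0.0314), and Pdk1, the kinase that keeps pyruvate out of mitochondria, by 1.02 (limma adjusted p 0.0165). Pdk1 ran from 10.19 to 10.80 in controls and from 11.08 to 12.02 in silenced cultures. On blocking by slide row the changes were 1.46 for Aldoc, 1.08 for Pfkfb4 and 1.06 for Pdk1, and none of the 3 was called (limma adjusted p 0.0752, 0.0943 and 0.0623). In addition, the other tested probes of Aldoc, at 0.17 and -0.19, and of Pdk1, at 0.58, -0.29 and -0.43, were not called. The Pdk1 probe at -0.43 was well above background on no array. Pfkl, the liver form of phosphofructokinase, fell by 2.15 (limma adjusted p 0.000760), with 13.63 to 14.14 in controls and 11.05 to 11.98 in silenced cultures, but its other probe changed by 0.58 and was not called. Gapdh, the glycolytic enzyme often used as a reference gene, fell by 0.86. Of its other 6 probes 4 were called lower, from -1.60 to -0.61, and 2, at -0.12 and -0.11, were not called. Gys1, glycogen synthase of muscle, fell by 0.72. Pkm, pyruvate kinase, fell by 0.63 on its brightest probe, and of its other probes 2 were called lower, at -1.68 and -1.72, and 1, at -0.21, was not called. On blocking by slide row Gapdh (-0.85), Gys1 (-0.72) and Pkm (-0.65) lost their calls (limma adjusted p 0.113, 0.113 and 0.125). Single arrays also decided most of these calls. Without control replicate 2 or 4 or silenced replicate 1 or 3 Aldoc (1.08 to 1.35), Pfkfb4 (0.90 to 1.07), Gapdh (-0.82 to -0.65), Gys1 (-0.76 to -0.66) and Pkm (-0.69 to -0.58) were not called, and leaving out control replicate 1 also ended the calls of Aldoc, Pfkfb4, Gapdh and Pkm. Silenced replicate 2 had the same effect on Pfkfb4 and Pkm, control replicate 3 on Pkm, and control replicate 4 on Pdk1 (1.02). The ranges in brackets cover every array whose removal ended the call of that gene. The glucose carrier Slc2a1 (0.30), lactate dehydrogenase Ldha (-0.02) and Pgk1 (0.20) were not called.

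The remaining HIF targets had a median change of 0.07, and 5 of 49 rose while 7 fell. Ddit4, which restrains mTOR under stress, had a log2 signal of 12.36 to 12.89 in controls and of 13.77 to 14.14 in silenced cultures, and rose by 1.35 (SE 0.21, limma adjusted p 0.00229). Angptl4, a secreted inhibitor of lipoprotein lipase, rose by 1.48 (limma adjusted p 0.00658), and these 2 were called under all 19 alternatives. Gpr146, an orphan receptor, rose by 1.48 and Ccng2, a cyclin of growth arrest, by 1.20, and neither was called on blocking by slide row (1.37 and 1.24, limma adjusted p 0.0720 and 0.0541), nor was Ccng2 without control replicate 2 (1.12). With normexp background correction Gpr146 changed by 0.86 and was called. Tfrc, the transferrin receptor through which cells take up iron, fell by 1.75 (limma adjusted p 0.000671) and its other probe fell by 1.97. Zfp395 changed by -1.68, Mafk, a small Maf protein, by -1.40, and Cxcl12, a chemokine, by -1.39, and all 3 kept their calls on blocking by slide row, though by the methods' t-test with the same adjustment Cxcl12 was not called (adjusted p 0.0824), nor was another of its probes in limma, with a change of -0.88. Bnip3, a mitophagy receptor, changed by 0.84 and was not called (limma adjusted p 0.0596).

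Relatives of single members were read in the same way. Of the VEGF ligands and receptors 1 of 7 was called, with a median change of -0.10. This was Vegfb, a sister ligand of VEGF-A, which ran from 11.76 to 12.21 in controls and from 10.92 to 11.37 in silenced cultures and fell by 0.91 (SE 0.20, limma adjusted p 0.0112), a call lost on blocking by slide row (-0.87, limma adjusted p 0.0692). In the adrenomedullin family 2 of 8 rose and 1 fell, with a median of 0.49. Calcb, a calcitonin gene-related peptide, rose by 3.31 (SE 0.24, limma adjusted p 0.000130) and was well above background on 2 control and 4 silenced arrays. Ramp3, which shapes the receptor for adrenomedullin, rose by 2.53 (limma adjusted p 0.00188) and by 3.11 on its other probe, from 1 control array well above background to 4 silenced arrays. Adm2, a peptide related to adrenomedullin, fell by 2.18 (limma adjusted p 0.0202), with silenced values spread from 4.10 to 7.03, and was not called on blocking by slide row (-1.99, limma adjusted p 0.0847) or without control replicate 2 (-2.10). With normexp background correction the changes of Calcb, Ramp3 and Adm2 were smaller, 2.28, 1.49 and -1.26, and all 3 were called. The receptor Calcrl changed by 0.60 and was not called (limma adjusted p 0.261).

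Of the other NDRG genes, 1 of 3 was called. Ndrg2, a relative of Ndrg1 abundant in muscle, rose by 1.31 (SE 0.32, limma adjusted p 0.0176), while Ndrg3 changed by 0.78 and Ndrg4 by 0.45. The Ndrg2 call was lost on blocking by slide row (1.39, limma adjusted p 0.0542) and without silenced replicate 1 (1.19). Among collagen hydroxylases and their partners 4 of 12 fell and none rose, with a median of -0.62, the lowest of the 7 lists. P4ha3, a sister of P4ha1, fell by 2.17 (limma adjusted p 0.00363) and was well above background on 4 control arrays and 1 silenced array, and with normexp background correction it changed by -1.21 and was called. By the methods' t-test with the same adjustment P4ha3 was not called (adjusted p 0.0571). P4hb, the partner subunit of P4ha1 and a disulphide isomerase of its own, fell by 1.03 (limma adjusted p 0.0129), with another probe at 0.50 that was not called, and it lost its call on blocking by slide row (-1.003, limma adjusted p 0.0664). Plod3, a lysyl hydroxylase, fell by 0.98 (limma adjusted p 0.00909), with its other probe called at -2.17, and Crtap, a partner of prolyl 3-hydroxylase, fell by 0.84 (limma adjusted p 0.0492). Crtap was called under 5 of 19 alternatives, and leaving out any array but control replicate 1 ended its call (-0.95 to -0.64).

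**Figure D5:**
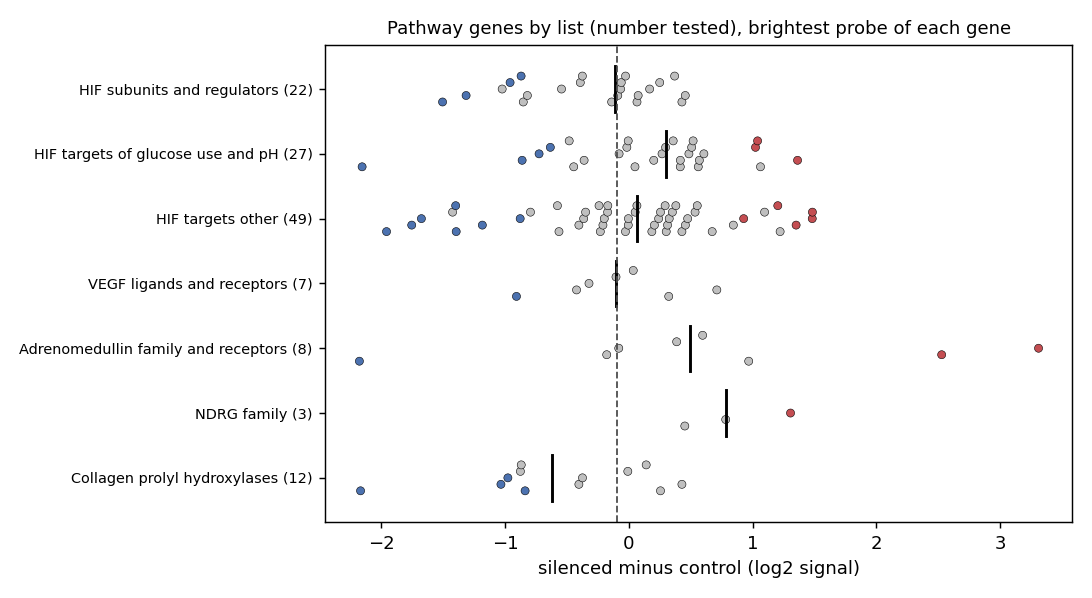
Change of each tested gene of the 7 pathway lists, silenced minus control on the log2 scale, by its brightest probe; red points were called higher, blue points lower and grey points not called, black bars mark list medians and the dashed line the median of all genes. The adrenomedullin family spans the widest range, from -2.18 to 3.31, and the collagen hydroxylases have the lowest median, -0.62.

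Markers of other cell types were summed on the same arrays, and the sums of the liver and macrophage markers did not overlap between groups. The summed signal of 24 liver markers, without masking of dim spots, ran from 1237 to 2096 on the linear scale in controls and from 5824 to 7552 in silenced cultures, with 10 of the 24, Apoa1 among them, well above background on no array. For 12 endothelial markers it ran from 605 to 939 and from 831 to 1137, with Pecam1, Cdh5 and 8 others well above background on no array. For 8 macrophage markers the sums were 5865 to 6691 and 6763 to 9629, with Adgre1, Lyz2 and Tyrobp well above background on no array. The macrophage markers did not move together, since of 6 tested Cd68 was called higher (1.84) and Csf1r (-1.12) and Itgam (-1.08) lower. Of the liver markers, 7 were well above background on all 4 silenced arrays and 1 on all 4 control arrays. Enough values for a test were present for 7 of the 24, of which 3 were called higher and none lower, and markers with too few control values are not in this count. For 8 adipocyte markers the sums were 3384 to 4026 and 3180 to 4011, with Adipoq, Retn and Cfd on none. The part of these shifts in the values of the hypoxia response genes and their pathway was not tested.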

How the data were processed

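Gene expression was measured on 1-colour arrays from 4 Pvt1-silenced and 4 control cultures. Spot intensity (linear scale) and quality flags of 0 or 1 were read from the scanner files the authors deposited. Their headers give Feature Extraction 12.0.0.7 as the program that subtracted background, whereas the labels name version 10.7.3.1. The authors also deposited a table of normalized intensity, used as an alternative.

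Following the study's methods, spots not positive and significant were masked, log2 values were normalized to common quantiles and replicate spots were averaged. Spots that were controls or outliers were left out. A probe was tested when each group had 3 or more of its 4 values (28649 probes). The test was limma 3.58.1 in R 4.3.3 (lmFit, eBayes), with group as the only term and Benjamini-Hochberg adjustment. For probe pairs the 8 arrays were permuted exactly, two-sided. The limma fit was tested on simulated data.

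A gene of a pathway list was read by its probe with the highest mean. All probes of the 10 genes are reported, Pvt1 by its brightest probe, and from each list up to 4 called genes per direction, by size of change, among those well above background on all arrays of at least 1 group; genes named beyond this were chosen after their values were seen. Where no array of a group was well above background, its level is known as a bound only. The members and lists were chosen with earlier results of these data known. Genes carry the names of the array design, probe coordinates are on mm9 as in the files, and promoters are from RefSeq. Figures were drawn with matplotlib 3.10.9.

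The alternatives were a 75th percentile shift, normexp (offset 50), cyclic loess, the authors' table, no mask and a stricter mask of dim spots, complete probes, a robust trended prior, the methods' t-test, the replicate number and the slide row as blocks, leaving out each array and, for pathway genes, other choices of probe. Cyclic loess for the probe pairs was added after the data were seen. Protein sequences and exon or UTR annotation were not used here. The sequence and position of Vegfa probe 1 are not reported here.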

Additional observations from a re-analysis of the deposited data

Results flagged for a closer look

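In groups of 4 arrays, the highest or lowest value was compared with its nearest neighbour for the tested member probes, Pvt1 and the named pathway genes, 86 groups in all. An array stood apart by the critical value of Dixon's test in 6 of them, where chance gives about 1 in 20 groups. Control replicate 3 stood low for the Hif1a probe on the plus strand, at 11.46 against 12.73 to 12.78 on the other controls. The same array was low for the 3′ probe of P4ha1, at 9.72 against 11.48 to 11.80, and for Mafk, at 10.30 against 10.81 to 10.91. Control replicate 1 was low for Ndrg2, at 8.64 (others 9.01 to 9.09), and for P4hb, at 14.74 (others 14.97 to 15.00). Silenced replicate 4 was low for Ndrg2 as well, at 9.25 against 10.57 to 10.62.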

How the results depend on the processing

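Of the 15 member probes 4 were called, and between 4 and 6 under the other scalings, masks and prior. Not all of these settings tested the same probes. The authors' table and no masking gave 6 of 16 each, against 19.6% and 17.3% of all probes. The stricter mask gave 5 of 10, against 30.0%, and complete probes gave 4 of 14, against 24.9%. Blocking by slide row left 1 called, Vegfa probe 1, against 10.8% of all probes. Without single arrays between 1 and 6 were called, against 12.85% to 29.87% of all probes. Pathway genes called, 32 as reported, numbered 59 with cyclic loess, 54 with the authors' table, 56 without masking, 14 on blocking by slide row and 21 to 49 without single arrays. With no masking 19.7% of all genes were called higher and 11% lower. When single arrays were left out, 2.95% to 14.9% of all genes were called higher and 7.45% to 14.8% lower. By the methods' t-test 4 member probes and 17 pathway genes were called after Benjamini-Hochberg adjustment, and 5 and 51 before it. The adjusted t-test called 11.9% of all probes, and of all genes 2.58% higher and 7.73% lower. Unadjusted, it called 9021 of 28649 probes. After adjustment that test ended the calls of Hif1an, Hsp90aa1, Arntl, Aldoc, Pfkfb4, Pdk1, Gapdh, Gpr146, Ccng2, Cxcl12, Adm2, Ndrg2, P4ha3, P4hb and Crtap (adjusted p 0.0547 to 0.151). The direction turned for Epas1 on blocking by slide row (-0.00017) and for Hif1an in the authors' table (0.38). Leaving out single arrays also turned 3 uncalled changes, which then ran from -0.087 to 0.45 for the opposite-strand Hif1a probe, from -0.090 to 0.58 for Vhl and from -0.00085 to 0.38 for Ankrd37. Over all alternatives the uncalled changes ran from -0.00017 to 0.50 for Epas1, from -0.54 to -0.17 for Adm and from -0.93 to -0.32 for the 5′ probe of P4ha1. Of 28 named pathway genes 17 kept their call without any single array. Where the text gives no value as the reason, the cause was not tested. For the probe pairs adjusted p-values say nothing of stability, since the 3 pairs with Vegfa probe 1 could not pass alone.

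Whether same-numbered cultures were paired is not stated by the labels. Same-numbered arrays had correlations of their deviations from the group means of -0.02, 0.15, 0.20 and 0.06. Differently numbered arrays were not compared, so these values cannot decide the pairing. With the replicate number as a block 1 member probe and 27 pathway genes were called. That fit called 17.5% of all probes, and of all genes 4.46% higher and 9.93% lower.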
